A study of Homo sapiens with 4 samples.

Results

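The AP-1, EGR and immediate early genes described here are 10 genes, FOS, FOSB, FOSL1, JUN, JUNB, JUND, EGR1, EGR3, IER2 and IER3, out of 60708 genes in a table of TT-seq counts. They were chosen by name, as rows whose gene identifier belongs to one of these symbols. The rule uses no measured value, but the set was proposed with earlier results of these data known. TT-seq marks RNA with 4-thiouridine (4-SU), pulls the marked fragments down and sequences them, which gives reads chiefly of RNA transcribed while the label was present. Labeling lasted 20 min. There were 4 libraries from HEK293, a human embryonic kidney cell line, 2 for each condition. All of them came from cells with an RPB1 degron, a tag through which auxin triggers destruction of the endogenous largest subunit of RNA polymerase II (Pol II). The cells were transiently transfected with a plasmid for RPB1 with either the 52X WT C-terminal domain (CTD) or a 52X CTD with T4A, which puts alanine in place of threonine at the fourth position of each repeat. Auxin was given to both groups 48 hours after transfection, for a further 48 hours. The comparison asks how the T4A substitution changes newly made RNA. The share of cells that took up the plasmid, its promoter and the endogenous RPB1 left after auxin are not given in the sources used here, and in such bulk samples fewer transcribing cells cannot be told apart from less RNA per cell.

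Immediate early genes are transcribed within minutes of a growth factor or stress signal, without the need for new protein, because kinases modify transcription factors that already sit at their promoters. Their genes are short and their mRNAs are degraded fast, so their RNA level follows transcription closely. FOS and JUN family proteins pair through leucine zippers to form the transcription factor AP-1, EGR proteins are zinc finger transcription factors that bind GC-rich DNA, and serum response factor (SRF) binds CArG boxes to drive several of these genes.

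The short and GC-rich nature of the genes is visible in their sequence. A promoter window of 300 bases, from RefSeq on GRCh38.p14, was found for 7 of the 10 genes, and those of FOSL1, EGR3 and IER3 were not in the table. The windows of EGR1, JUNB and FOS are shown because EGR1 lay below WT in both T4A libraries, JUNB differed most between the T4A libraries, and FOS differed little in any library. Capitals mark letter matches other than the SP1 box, and positions count from 1 at the start site, with the base before it at -1.
EGR1 (chr5:138465229-138465528, + strand, 69.3% GC): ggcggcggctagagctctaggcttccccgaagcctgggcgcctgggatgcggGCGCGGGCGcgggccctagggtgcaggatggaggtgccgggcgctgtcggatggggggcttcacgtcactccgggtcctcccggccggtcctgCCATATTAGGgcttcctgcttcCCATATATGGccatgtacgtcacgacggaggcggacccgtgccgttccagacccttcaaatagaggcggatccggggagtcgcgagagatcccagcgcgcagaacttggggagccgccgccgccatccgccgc
JUNB (chr19:12791236-12791535, + strand, 71% GC): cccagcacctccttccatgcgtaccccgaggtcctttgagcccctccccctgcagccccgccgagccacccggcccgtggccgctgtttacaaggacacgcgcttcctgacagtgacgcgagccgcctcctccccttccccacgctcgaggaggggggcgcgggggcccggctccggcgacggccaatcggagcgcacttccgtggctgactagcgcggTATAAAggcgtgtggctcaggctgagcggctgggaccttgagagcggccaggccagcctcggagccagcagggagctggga
FOS (chr14:75278578-75278877, + strand, 64.7% GC): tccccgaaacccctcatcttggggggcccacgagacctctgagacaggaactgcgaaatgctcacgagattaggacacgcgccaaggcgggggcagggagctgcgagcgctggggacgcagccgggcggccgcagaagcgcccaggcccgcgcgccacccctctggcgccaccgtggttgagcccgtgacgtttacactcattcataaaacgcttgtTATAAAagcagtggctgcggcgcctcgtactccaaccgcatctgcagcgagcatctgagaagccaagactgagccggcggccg

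The EGR1 window holds a pair of CArG boxes, at positions -105 to -96 and -83 to -74, and a match to the EGR site GCGNGGGCG at -198 to -190. A CArG box occurs in 1.29% and this EGR site in 9.43% of 35116 promoter windows searched on both strands. Because the CArG pattern reads alike on both strands, each box was found on both and counted once. The TATA box TATAAA was matched in FOS, FOSB and JUNB, at -33, -30 and -31, and in 11.5% of all windows. The CRE TGACGTCA was matched only in JUND, at -200 to -193, and in 1.85% of all windows, and the AP-1 site TGANTCA in none of the 7 and in 7.71% of all. The SP1 box GGGCGG was matched in 5 of the 7, all but JUNB and EGR1, and in 45% of all windows. All 7 windows had more GC than the median window, which held 58.7%.

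The instability of these mRNAs is tied to AU-rich elements in the 3′ untranslated region, which hold the pentamer ATTTA and, in a stronger form, the nonamer TTATTTATT. In the canonical transcript of each gene, 9 of the 10 genes had at least 1 ATTTA there, IER2 being the exception. IER3 had 6, FOS 5, FOSB, JUN and EGR3 3 each, JUNB 2, and FOSL1, JUND and EGR1 1 each, where the median over 19403 protein-coding genes was 2. With that median most protein-coding genes hold at least 1, so a count of 9 of 10 does not set these genes apart. FOS alone among the 10 held the nonamer, which 8.43% of these genes have. It is shown here in capitals, from position 646 of the FOS 3′ untranslated region.
FOS nonamer: gtttttaatTTATTTATTaagatggat

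All 10 genes were well covered. Their counts ranged from 169 for JUNB in T4A replicate 1 to 13393 for EGR1 in WT replicate 2, and the libraries summed to between 33188536 and 45605027 counts. Their spans, over which reads in introns and exons were counted together, run from 1350 bp for IER3 to 8525 bp for FOSL1, against a median of 37837 bp for tested protein-coding genes. JUN, JUNB and JUND have a single exon, EGR1, EGR3, IER2 and IER3 have 2 and the FOS family genes 4. Span GC content ran from 47.0% for JUN to 69.9% for JUND, against a median of 44.5%. POLR2A, which encodes RPB1, was counted 377312 and 384353 times in WT and 251502 and 279478 times in T4A, plasmid and endogenous transcripts together, with a log2 fold change of -0.24 ± 0.25 (SE) and an edgeR adjusted p of 0.66. Of 8 genes listed for HEK293 cells, 6 had at least 10 counts in every library and NEFM and PAX8 did not. Summed markers of blood, liver, fibroblast and melanocyte cells stayed at 3.86 CPM (counts scaled to library size) or less, against 533 to 598 CPM for the HEK293 markers. The WT replicates had a correlation of 0.989 in log2 CPM over tested genes and the T4A replicates one of 0.974. T4A replicate 1 was the library farthest from the others, at 0.970 and 0.968 with WT replicates 1 and 2, where T4A replicate 2 stood at 0.987 and 0.985. The fits with and without it are given for the 10 genes. Values below are CPM after TMM normalization, a scaling that sets the bulk of genes equal between libraries, so a change shared by most genes cannot be seen in them.

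In T4A cells no AP-1, EGR or immediate early gene changed past the threshold of an adjusted p below 0.05 and a fold change above 1.5. The count was 0 of 10 with edgeR, where 0.00429% of the 23321 tested genes passed, and adjusted p-values of the 10 ran from 0.245 to 0.917. Only EGR1 had an unadjusted p below 0.05, at 0.0121 (8.02% of all tested genes had such a p with a lower value in T4A), and DESeq2 also called none past both limits. The 10 genes had a median log2 fold change of -0.21, where that of all tested genes was -0.000722, and 7 of the 10 values were negative, where 50.1% of all tested genes were. This median stands between T4A libraries that differed. In T4A replicate 1 the 10 genes lay a median of 0.62 below the WT mean on the log2 scale (-0.62, range -3.38 to 0.08), and in T4A replicate 2 they lay a median of 0.10 above it (range -0.25 to 0.27). T4A replicate 1 held the lowest of the 4 values for 8 of 10 genes, all but FOSB and FOSL1 (25.5% of all tested genes were lowest there).

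**Figure D1:**
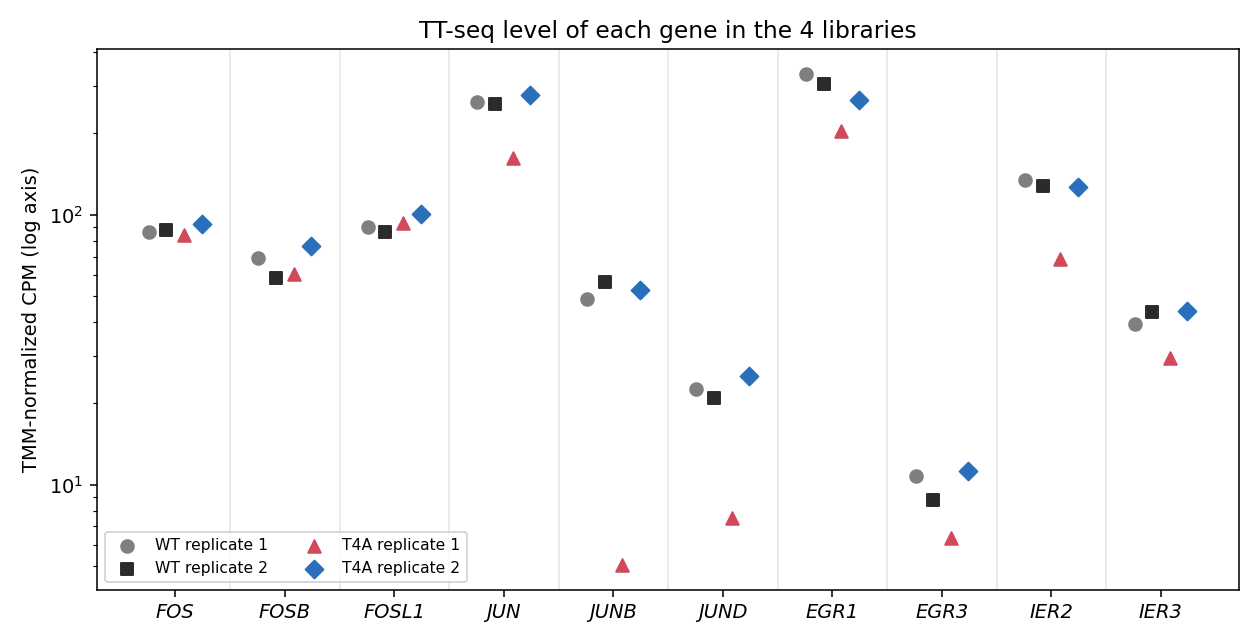
TMM-normalized CPM on a log axis for each of the 10 genes, with 1 point per library (grey circle and black square, WT replicates 1 and 2; red triangle and blue diamond, T4A replicates 1 and 2). T4A replicate 1 is lowest for 8 of 10 genes and stands far below the others for JUNB (5.03 CPM) and JUND (7.50 CPM), while T4A replicate 2 is near the WT libraries.

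In WT cells the genes differed widely in counts per kb of listed span. This span exceeds the canonical transcript for some, as for JUN (7204 bp against 3257 bp), and equals it for JUNB (1830 bp). An order by transcript length was not computed. Divided by span, EGR1 had the highest level, 83.0 CPM per kb (79.3 and 86.7 in the replicates). JUN followed at 36.1 CPM per kb (35.8 to 36.3), then IER3 at 30.8 (29.2 to 32.3), IER2 at 29.2 (28.5 to 29.8) and JUNB at 28.7 (26.6 to 30.8). IER3 and IER2 overlapped between replicates, as did IER2 and JUNB, so these neighbours had no settled order. FOS stood at 25.6 CPM per kb (25.3 to 25.8), below these. JUND at 11.3 (10.8 to 11.7), FOSL1 at 10.3 (10.1 to 10.6), FOSB at 8.87 (8.14 to 9.61) and EGR3 at 1.68 (1.5 to 1.86) came last, each below the one before it in both replicates. In T4A cells the mean levels again placed EGR1 first, JUN second and EGR3 last, with 61.7, 30.6 and 1.51 CPM per kb. JUNB lay after FOS there, at 15.8 CPM per kb against 26.0, with JUNB at 2.75 in T4A replicate 1 and 28.8 in T4A replicate 2.

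The FOS family, whose proteins cannot pair with each other and usually take a JUN partner, was the group with the most even values. FOS (ENSG00000170345.10, chr14:75278826-75282230, + strand), with coordinates on GRCh38 here and for the other genes, was at 86.0 and 88.0 CPM in WT replicates 1 and 2 and at 84.2 and 92.7 CPM in T4A replicates 1 and 2. The T4A values enclosed the WT values, and the log2 fold change was 0.02 ± 0.09 (SE; edgeR adjusted p = 0.917). FOSB (ENSG00000125740.14, chr19:45467995-45475179, + strand), a relative that accumulates with repeated stimulation in neurons, was at 69.1 and 58.5 CPM in WT and at 60.5 and 76.4 CPM in T4A. These groups overlapped too, with a log2 fold change of 0.10 ± 0.13 (adjusted p = 0.727). FOSL1 (ENSG00000175592.9, chr11:65892049-65900573, - strand), which encodes FRA-1, an AP-1 subunit induced later than FOS, was at 90 and 86.1 CPM in WT and at 92.9 and 101 CPM in T4A. Both T4A values lay above both WT values, as for 24.8% of all tested genes, by a log2 fold change of 0.14 ± 0.09 that did not pass the test (adjusted p = 0.468). The summed CPM of the FOS family was 239 in WT on average, 238 in T4A replicate 1 and 270 in T4A replicate 2.

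The JUN family gave the widest disagreement between the T4A libraries. JUNB (ENSG00000171223.6, chr19:12791486-12793315, + strand), an AP-1 subunit that can oppose JUN at some targets, was at 48.6 and 56.4 CPM in WT, at 5.03 CPM in T4A replicate 1 and at 52.6 CPM in T4A replicate 2. The counts behind these values were 1906, 2488, 169 and 1822. T4A replicate 2 lay between the WT libraries and T4A replicate 1 lay 10.4-fold below the WT mean, a distance that 0.399% of tested genes reached or exceeded there. The fold between the T4A libraries was 10.5 (exact 95% interval 8.94 to 12.3, for counting error only), and between the WT libraries it was 1.16 (1.09 to 1.23). The fitted log2 fold change of JUNB was -0.86 ± 0.73 (SE; edgeR adjusted p = 0.586). It was -3.40 without T4A replicate 2 and 0.01 without T4A replicate 1. JUNB passed the threshold in 3 other fits. With the replicate number as a block it was -1.58 (1.1% of tested genes called lower), and with the GC trend also removed -0.93 (0.626%). With scaling to mitochondrially encoded genes it was -0.97 (0.373%). Replicate numbers were not taken as pairs, since deviations of libraries that share a number had a correlation of 0.0159 over genes.

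JUND (ENSG00000130522.6, chr19:18279694-18281622, - strand), an AP-1 subunit that many cells make without stimulation, was at 22.6 and 20.9 CPM in WT, at 7.50 CPM in T4A replicate 1 and at 25.3 CPM in T4A replicate 2. T4A replicate 1 was again below all others while T4A replicate 2 was the highest. The fold between the T4A libraries was 3.37 (2.93 to 3.89), and the fitted log2 fold change was -0.40 ± 0.43 (adjusted p = 0.664). JUND also passed the threshold with the replicate block, at -0.63 with an adjusted p of 0.0452, and it was 0.23 without T4A replicate 1. JUN itself (ENSG00000177606.8, chr1:58776845-58784048, - strand), the partner of FOS in the classical AP-1 dimer, was at 262 and 258 CPM in WT and at 162 and 278 CPM in T4A. Its T4A values lay on either side of the WT values, 1.71-fold apart (1.66 to 1.77), and the log2 fold change was -0.24 ± 0.21 (adjusted p = 0.599), or 0.11 without T4A replicate 1. In sum the JUN family stood at 334 CPM in WT, 175 CPM in T4A replicate 1 and 356 CPM in T4A replicate 2.

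EGR1 (ENSG00000120738.8, chr5:138465479-138469303, + strand), the zinc finger factor with the highest level of the 10, was one of 2 genes with both T4A values below both WT values, as found for 24.7% of all tested genes. It was at 332 and 304 CPM in WT and at 205 and 267 CPM in T4A. Its means were 318 ± 19.9 CPM in WT and 236 ± 43.9 CPM in T4A (SD, n = 2 each), and its T4A libraries differed 1.30-fold (1.26 to 1.34). The log2 fold change was -0.43 ± 0.13 (SE), with an edgeR adjusted p of 0.245 over all tested genes. It remained negative in both fits that left out a T4A library, at -0.24 without replicate 1 (adjusted p = 0.436) and -0.65 without replicate 2 (adjusted p = 3.9e-06). DESeq2 gave it an adjusted p of 0.0259, and the fit with the GC trend removed gave -0.28 ± 0.05 with an adjusted p of 0.00504, in both cases under a fold of 1.5. EGR3 (ENSG00000179388.9, chr8:22687659-22693480, - strand), a relative with roles in muscle spindles and lymphocytes, was the least transcribed of the 10, at 10.8 and 8.75 CPM in WT and 6.34 and 11.2 CPM in T4A. Its T4A values enclosed the WT values, and its log2 fold change was -0.15 ± 0.26 (adjusted p = 0.798), or 0.21 without T4A replicate 1.

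IER2 (ENSG00000160888.7, chr19:13150411-13154911, + strand), which encodes a small nuclear protein, was at 134 and 128 CPM in WT and at 68.6 and 127 CPM in T4A. It was the other gene with both T4A values below both WT values, but T4A replicate 2 was within 1.04 CPM of WT replicate 2 while T4A replicate 1 was 1.91-fold below the WT mean. Its log2 fold change was -0.42 ± 0.23 (adjusted p = 0.404). It was -0.04 without T4A replicate 1, -0.95 without T4A replicate 2 and -0.03 with the GC trend removed. IER3 (ENSG00000137331.12, chr6:30743199-30744548, - strand), also called IEX-1, a stress-induced regulator of cell survival, was at 39.5 and 43.6 CPM in WT and at 29.4 and 43.8 CPM in T4A. Its groups overlapped, with a log2 fold change of -0.18 ± 0.17 (adjusted p = 0.624), or 0.08 without T4A replicate 1.

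**Figure D2:**
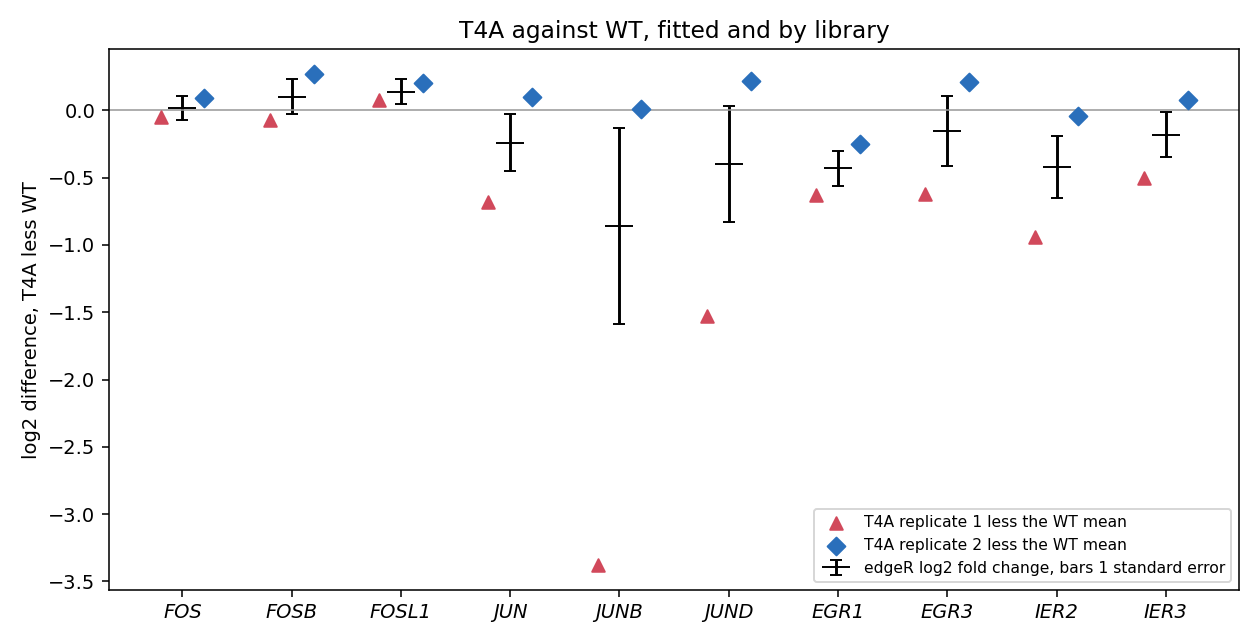
For each gene, the log2 difference from the WT mean of T4A replicate 1 (red triangle) and T4A replicate 2 (blue diamond), with the edgeR log2 fold change of T4A against WT (black dash; bars, 1 SE). The T4A libraries lie on opposite sides of 0 for 7 of 10 genes, and only EGR1 lies clearly below 0 in both, at -0.63 and -0.25. The share of all tested genes with T4A libraries on opposite sides was not computed.

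Replicates of T4A disagreed more for these genes than for genes at large. The absolute log2 gap between the T4A libraries had a median of 0.68 over the 10 genes, where it was 0.21 over all tested genes. Between the WT libraries the medians were 0.12 for the 10 genes and 0.17 for all. The largest gap of any of the 10 between the WT libraries was 0.31. Leaving out T4A replicate 2 put 6 of 10 genes past the threshold, JUN, JUNB, JUND, EGR1, EGR3 and IER2, all of them lower in T4A (5.61% of tested genes were called lower in that fit), and the median log2 fold change became -0.64. IER3 had an adjusted p of 0.0037 there and missed the fold limit at -0.51. Leaving out T4A replicate 1 put none past the threshold (0.794% of tested genes), with 8 of 10 values positive and a median of 0.10. In these fits a lone T4A library is taken to vary as the WT libraries do. The share of positive values over all tested genes was not computed for them. Protein-coding genes above 55% span GC, where most of the 10 fall, had class medians of 0.07 to 0.09 above the WT mean in T4A replicate 2. In T4A replicate 1 the medians of these classes were -0.39 at 55 to 60% GC, -1.01 at 60 to 65% and -1.98 above 65%.

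**Figure D3:**
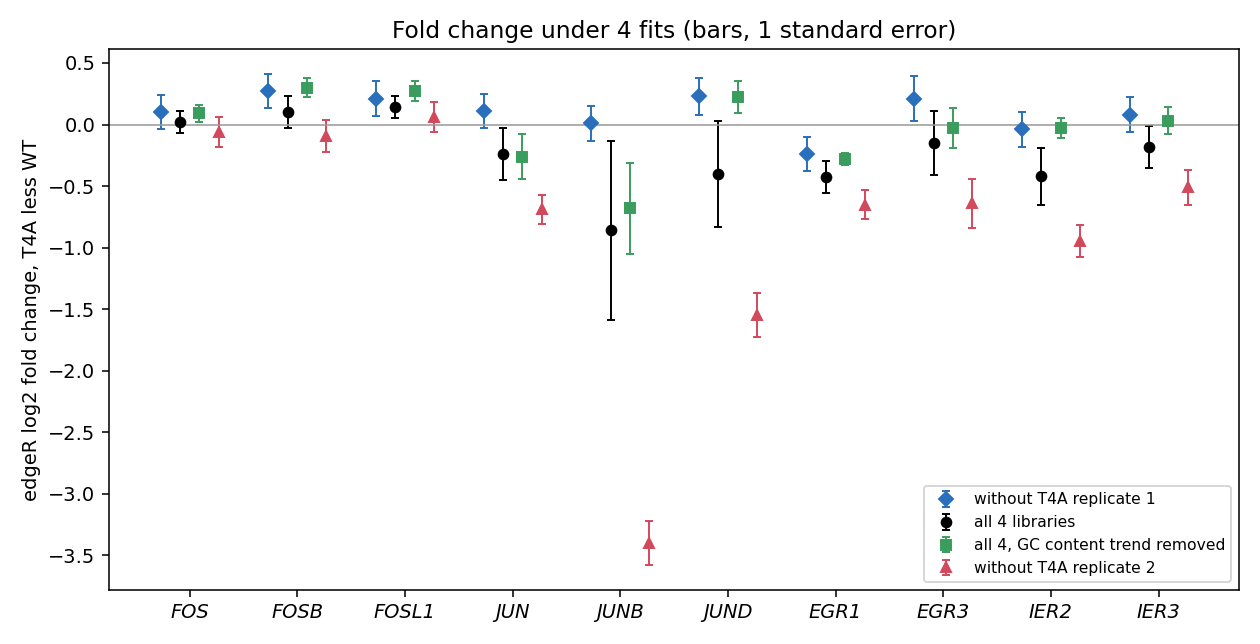
edgeR log2 fold change of T4A against WT for each gene (bars, 1 SE) without T4A replicate 1 (blue), with all 4 libraries (black), with all 4 and the GC trend removed (green), and without T4A replicate 2 (red). JUNB runs from 0.01 to -3.40 between the fits, and EGR1 is negative in all 4.

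Among protein-coding genes, values in T4A replicate 1 were lower at a span GC content above 50%. Up to 40% GC the median deviation from the WT mean in that library was 0.01 on the log2 scale. It was 0.04 at 40 to 45% and 0.02 at 45 to 50%, the class of JUN, which itself lay at -0.68. The median was -0.11 at 50 to 55% GC, the class of FOS. It was -0.39 at 55 to 60%, the class of FOSB, FOSL1, EGR1, EGR3 and IER3. It was -1.01 over 600 genes at 60 to 65%, the class of JUNB and IER2, and -1.98 over 202 genes above 65%, the class of JUND. In T4A replicate 2 the class medians stayed between -0.09 and 0.09. Among the 10 genes, span GC and the deviation in T4A replicate 1 had a Pearson r of -0.59, which was -0.15 over the 8 genes left without JUNB and JUND, all points sharing the same library. The part of GC content in the lower values of T4A replicate 1 was not tested.

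Set against genes of like GC content, the 10 genes differed among themselves in T4A replicate 1. With the GC trend of each library removed, IER2, IER3 and FOS lay at 0.09, 0.09 and 0.15 from the WT mean there, and JUND, FOSB and FOSL1 at 0.41, 0.42 and 0.39. EGR1 and EGR3 lay at -0.24 each. JUN, at -0.74, and JUNB, at -2.05, remained well below, JUN with a span of only 47.0% GC but a transcript of 56.1%. The median of the 10 moved from -0.62 to 0.09 in T4A replicate 1 and from 0.10 to 0.06 in T4A replicate 2. In the edgeR fit with this trend removed none of the 10 passed the threshold (1.46% of tested genes did), JUND and IER3 had positive values of 0.22 and 0.03, and FOSB had 0.30 ± 0.08 with an adjusted p of 0.0354, under the fold limit. JUNB kept a negative value of -0.68 ± 0.37 (adjusted p = 0.266).

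**Figure D4:**
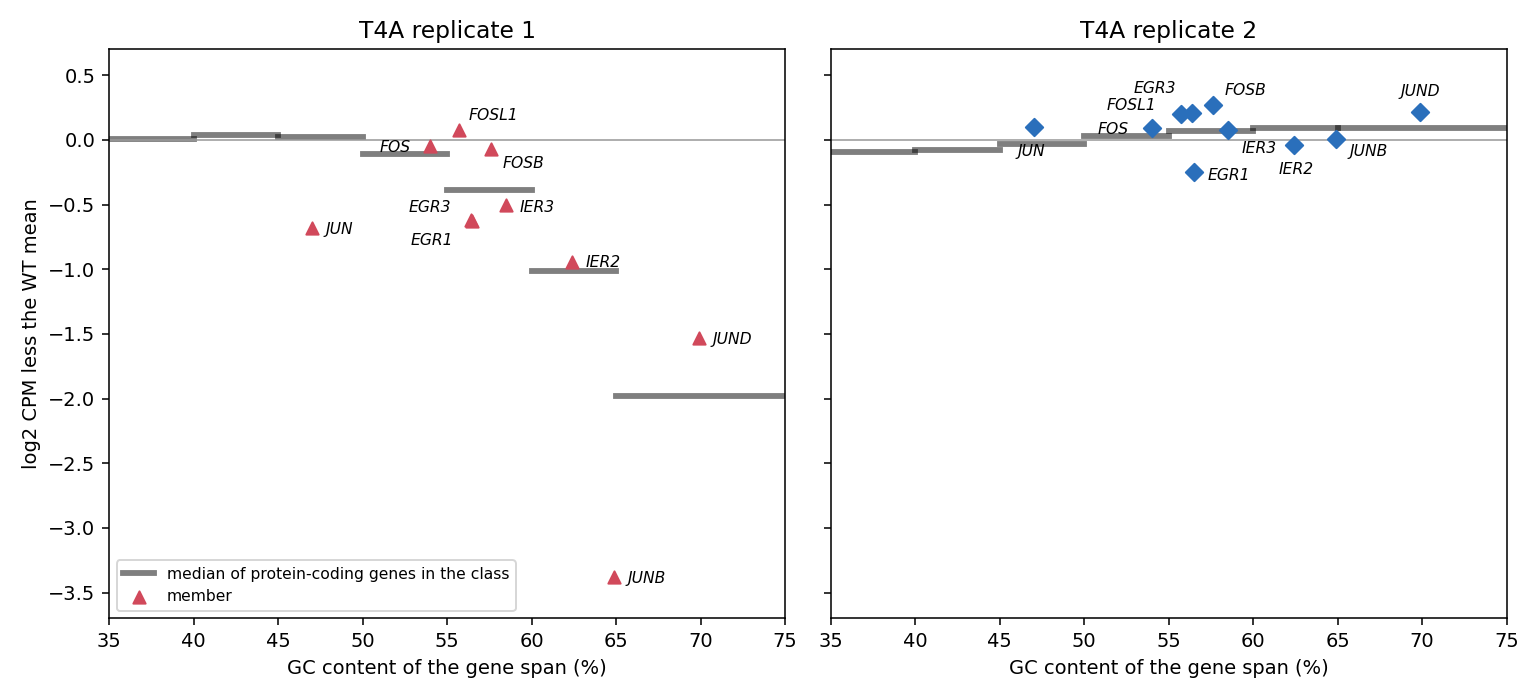
Log2 CPM less the WT mean against the GC content of the gene span (%), for T4A replicate 1 (left) and T4A replicate 2 (right). Grey bars are medians of protein-coding genes in each GC class and points are the 10 genes. The class medians drop to -1.98 in T4A replicate 1 and stay within 0.09 of 0 in T4A replicate 2. JUNB and JUN lie farthest below their class medians in T4A replicate 1, and EGR1, EGR3 and IER3 lie below theirs by less.

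Genes around the 10 were read for the same comparison. Within 50000 bp, 50 other genes were tested, none with an adjusted p below 0.05 (smallest 0.195, for LSM4 near JUND), and their median log2 fold change was 0.12. Of these, 8 had a span above 60% GC, and 7 of the 8 lay below the WT mean in T4A replicate 1. Most protein-coding genes of that GC content did too, with upper quartiles there of -0.58 at 60 to 65% and -1.34 above 65%. CCDC85B, 414 bp from FOSL1 on the other strand and with 71.7% GC, was counted 96 and 105 times in WT and 3 and 68 times in T4A. An antisense noncoding gene inside IER2, ENSG00000267598, with 69.6% GC, was counted 32, 14, 0 and 15 times in the same order. ERCC1, a DNA repair gene that spans FOSB on the other strand at 52.1% GC, had 1943, 1979, 1648 and 1923 counts. HOOK2, which spans JUNB on the other strand at 53.6% GC, had 1036, 950, 719 and 920 counts, so the low JUNB count in T4A replicate 1 was not shared by the gene across it. JUNB has 64.9% GC, however, and the medians of the GC classes of HOOK2 and JUNB in that library were -0.11 and -1.01. JUNB lies at the upper edge of its class, and the class above 65% had a median of -1.98 there. LINC01135, 1080 bp from JUN on the other strand, had 536, 535, 591 and 490 counts.

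No gene of the related lists passed the threshold either. Other AP-1 family genes, which include the ATF and MAF factors, numbered 18, with 3 higher and 0 lower at an unadjusted p below 0.05 (7.45% of all tested genes were higher at that limit) and a median log2 fold change of 0.17. Of these, MAFF, a small MAF protein that lacks an activation domain, was at 20.8 and 21.1 CPM in WT and at 30.3 and 32.0 CPM in T4A (0.57 ± 0.11, adjusted p = 0.173). ATF3, a stress-induced factor, was at 367 and 356 CPM in WT and at 484 and 438 CPM in T4A (0.35 ± 0.11, adjusted p = 0.238). Both were named because their T4A and WT libraries did not overlap. Over the whole list, 6 of 18 genes had both T4A values above both WT values, where 24.8% of all tested genes did, and 0 had both below.

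Targets of AP-1 had the highest median of the lists, 0.30 over the 16 of 19 that were tested. At an unadjusted p below 0.05, 7 were higher and 1 lower, where 7.45% and 8.02% of all tested genes were. HBEGF, a membrane-bound ligand of the EGF receptor, was at 70.0 and 87.1 CPM in WT and at 142 and 111 CPM in T4A, a log2 fold change of 0.68 ± 0.14 with an adjusted p of 0.173. CD44, a hyaluronan receptor, was at 80.8 and 82.6 CPM in WT and at 112 and 95.7 CPM in T4A (0.34 ± 0.10, adjusted p = 0.23). CXCL8, the chemokine interleukin-8, was at 2.12 and 2.13 CPM in WT and at 3.45 and 3.90 CPM in T4A (0.79 ± 0.24, adjusted p = 0.235). Median deviations of this list from the WT mean were 0.34 and 0.29 in T4A replicates 1 and 2, so the libraries lay together, at a median GC content of 50.2%.

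Other immediate early genes, 47 in number, gave 9 higher and 3 lower at an unadjusted p below 0.05 and a median of 0.05. Over all tested genes these shares were 7.45% higher and 8.02% lower. CSRNP1, a nuclear protein induced by AXIN1, was at 67.5 and 66.0 CPM in WT and at 85.1 and 89.5 CPM in T4A (0.39 ± 0.09, adjusted p = 0.184). ERRFI1, a feedback inhibitor of the EGF receptor, was at 129 and 140 CPM in WT and at 193 and 163 CPM in T4A (0.41 ± 0.11, adjusted p = 0.209). ZFP36L2, which binds AU-rich elements and speeds decay of the mRNAs that hold them, was lower, at 30.3 and 34.0 CPM in WT and 17.7 and 24.5 CPM in T4A (-0.61 ± 0.16, adjusted p = 0.214).

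The kinases and factors that act on these promoters, 31 genes, had a median of -0.11. At an unadjusted p below 0.05, 0 were higher and 4 lower. Beside this list and those that follow, 7.45% of all tested genes were higher and 8.02% lower at that limit. MRTFB, a coactivator of SRF, was at 192 and 200 CPM in WT and at 154 and 142 CPM in T4A (-0.41 ± 0.09, adjusted p = 0.184). MAPK9 and MAPK10, which encode the JUN kinases JNK2 and JNK3, had log2 fold changes of -0.25 ± 0.09 and -0.29 ± 0.11 (adjusted p = 0.257 and 0.271). Of 17 tested genes for decay of AU-rich mRNAs, 0 were higher and 3 lower, with a median of -0.08. Besides ZFP36L2 these were ELAVL1, which encodes the stabilizing protein HuR, at -0.32 ± 0.09 (adjusted p = 0.226), and CNOT3, a subunit of the CCR4-NOT deadenylase complex, at -0.37 ± 0.16 (adjusted p = 0.32). EGR2, EGR4, WT1 and the EGR corepressors NAB1 and NAB2, 5 genes, had a median of -0.10, with 0 higher and 1 lower. That gene was NAB1, at 39.4 and 45.1 CPM in WT and 34.4 and 32.7 CPM in T4A (-0.33 ± 0.11, adjusted p = 0.25), and the related WT1 was at -0.10 ± 0.09 (adjusted p = 0.632).

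**Figure D5:**
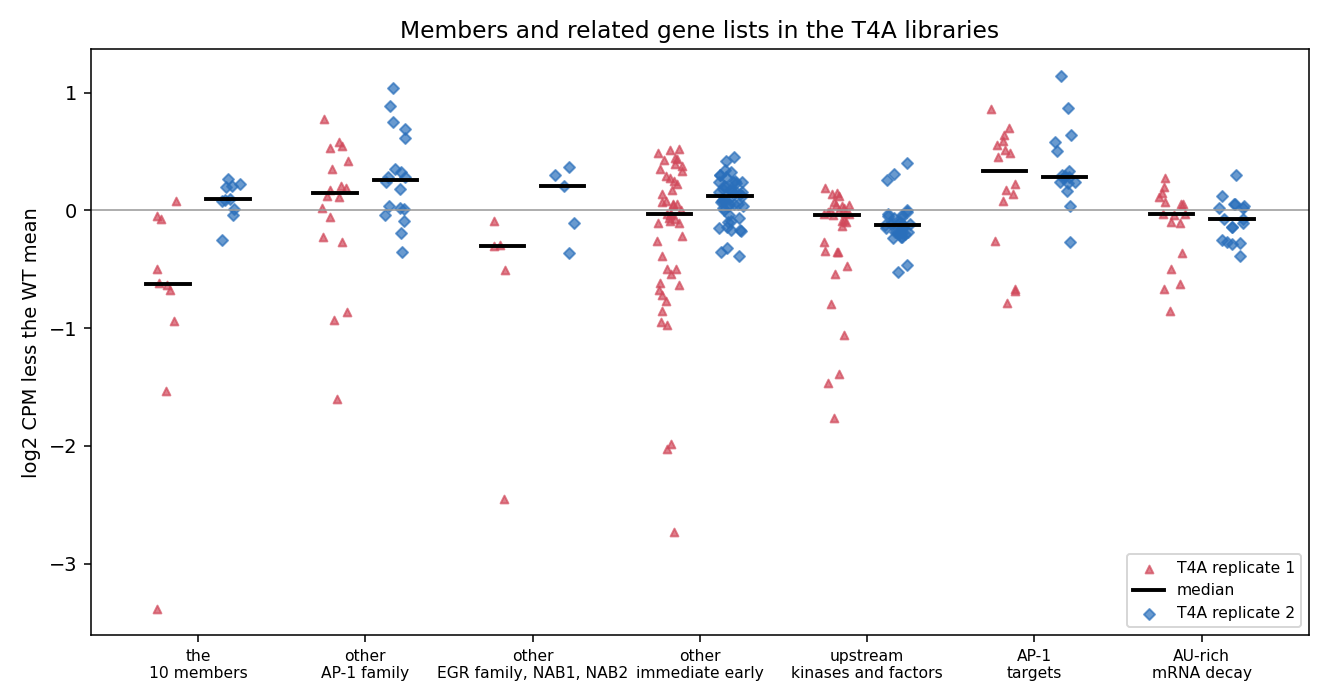
Log2 CPM less the WT mean for the 10 genes and each tested gene of the 6 related lists, in T4A replicate 1 (red triangles) and T4A replicate 2 (blue diamonds); black lines are medians. The 10 genes have medians of -0.62 and 0.10, while AP-1 targets lie at 0.34 and 0.29.

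The genes whose levels over the 4 libraries were most like those of FOS, JUN and EGR1 were found among 12930 protein-coding genes, by the root mean square distance of log2 CPM less its mean. For FOS these were POGLUT1, BTF3 and GAP43, at distances of 0.0052 to 0.0093, and 2648 genes lay within 0.1. For JUN they were PTMA, HES1 and AP5Z1, at 0.020 to 0.025, with 195 genes within 0.1. HES1, a repressor in Notch signaling, was at 45.9 and 45.8 CPM in WT and at 29.5 and 48.3 CPM in T4A. Its low value in T4A replicate 1 follows from its choice for likeness to JUN over these libraries. For EGR1 they were TAMALIN, DFFB and GOLGA3, at 0.014 to 0.017, with 383 genes within 0.1. GOLGA3, a Golgi protein, was at 74.3 and 66.2 CPM in WT and at 46 and 59.5 CPM in T4A.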

How the data were processed

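The authors labeled, fragmented and pulled down 4-SU RNA and built strand-specific libraries from 50 ng RNA per sample. The submitters' processing notes list FastQC, cutadapt 4.6, STAR 2.7.11b, Picard, deepTools 3.5.6 and the build GRCh38, and the table's format is that of featureCounts. The counter's version and strand setting are not given in the sources used here. The authors deposited raw counts per gene, and the listed length equals the whole span for all 60708 genes, so introns are included. Strand was evidently used in counting, since all 1120 lncRNA genes nested in a same-strand gene with 1000 or more counts had 0 counts, where 14.2% of 2978 nested only in opposite-strand genes did, and none of the 10 genes overlaps a gene of its own strand. Coordinates are those of the table. Symbols, types and GC content came from a GRCh37 annotation by stable identifier (58742 genes matched), and promoters from RefSeq.

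Groups came from the sample labels. Nothing says that replicates were separate cultures or transfections, so p-values measure the spread between these libraries, which may be technical. Total counts were 39249066 and 45605027 for WT and 33853507 and 33188536 for T4A, with TMM factors of 0.998, 0.968, 0.993 and 1.04. Intervals on counts cover counting error only. edgeR 4.0.16 in R 4.3.3 fitted all 4 libraries (filterByExpr, TMM, quasi-likelihood test, Benjamini-Hochberg over all tested genes). A gene was called at an adjusted p below 0.05 and a fold change above 1.5, and standard errors came from the F statistic. Of the tested genes 1 was called, CHST8 (log2 fold change 1.06 ± 0.09, adjusted p = 0.0311). The code was tested on simulated data. Alternatives used DESeq2 1.42.0, other scalings and filters, removal of GC or length trends, the replicate number as a block, and each library left out. The correlation over genes between deviations of libraries that share a number was 0.0159, so the numbers were not taken as pairs. The 10 genes and the lists were chosen with earlier results of these data known. Besides the 10, the genes named are POLR2A, CHST8, up to 3 of each list with the lowest p among genes with a mean count of 50 or more whose T4A and WT libraries did not overlap, 3 likest genes each for FOS, JUN and EGR1, and neighbours within 50000 bp. One of the genes that this rule names is not reported here.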

Additional observations from a re-analysis of the deposited data

How the results depend on the processing

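With 2 libraries a group, leaving out T4A replicate 1 turned the sign of 5 of the 10 genes, JUN, JUNB, JUND, EGR3 and IER3. Of 150 values of single genes under alternatives, 136 kept their sign and 10 were past the threshold. The count of the 10 genes past the threshold was 0 with all libraries, 2 with the replicate block, 1 with the replicate block and GC trend removed, 1 with scaling to mitochondrially encoded genes, and 0 to 6 when a library was left out (6 without T4A replicate 2). The replicate block changed no call of the other 8 genes. The median log2 fold change of all 10 genes ran from -0.28 without WT replicate 2 and -0.64 without T4A replicate 2 to 0.10 without T4A replicate 1. Genes called in all numbered 1 with all libraries, 106 with DESeq2, 195 with scaling to mitochondrially encoded genes, 65 with no filter on low counts, 2 with the length trend removed, 339 with the GC trend removed, 433 with the replicate block, 0 with that block and the length trend removed (3359 at an unadjusted p below 0.05), 657 with that block and the GC trend removed, and 0 to 2500 when a library was left out. The cause was not tested. Values took the other sign for FOS with no filter on low counts (-0.000867), for JUND and IER3 with the GC trend removed (0.222 and 0.0337) and for both with the replicate block as well (0.226 and 0.0389). With a library left out, the log2 fold change ran from -0.063 to 0.098 for FOS, from -0.0902 to 0.27 for FOSB, from 0.062 to 0.208 for FOSL1, from -0.646 to -0.242 for EGR1, from -0.951 to -0.0376 for IER2, from -0.693 to 0.107 for JUN, from -3.4 to 0.0095 for JUNB, from -1.55 to 0.227 for JUND, from -0.639 to 0.21 for EGR3 and from -0.514 to 0.0822 for IER3. The lowest count of any of the 10 genes was 169, and the effect of depth was not tested.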
